A study of Mus musculus with 4 samples.

Results

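Dorsal olfactory sensory neurons that expressed a class I odorant receptor were compared with dorsal neurons that expressed a class II receptor, gene by gene, after the receptor genes themselves had been set aside. A neuron was dorsal when the deposited clustering, made without receptor genes, placed it in the plain Dorsal cluster or in the Calb2+ D., Cd36+ D., Cd55+ D. or Dlg2+ D. cluster. Class I neurons were those with a deposited receptor identity from Olfr543 to Olfr691, and class II neurons those with an identity from Olfr700 to Olfr1512. These rules gave 894 class I neurons with 84 different receptors and 1009 class II neurons with 152 different receptors, that is 1903 of 2733 dorsal neurons and of 21809 barcodes in the series. The remaining dorsal neurons mostly carried Olfr numbers outside both ranges, of which 628 neurons with 98 receptors formed a second class II group.

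Odorant receptors of land vertebrates fall into class I, which resembles the receptors of fish, and the far more numerous class II. Each mature neuron expresses a single receptor gene, and class I genes lie together in 1 stretch of mouse chromosome 7 while class II genes are spread over the genome. Class I neurons sit in the dorsal part of the epithelium and send their axons to a domain of the dorsal olfactory bulb next to that of dorsal class II neurons. Both classes were therefore taken from the dorsal clusters.

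The data came from the main olfactory epithelium of 4 male C57BL/6 mice (C57BL/6J in the study's methods) aged 8 weeks, all untreated, with 1 library per mouse. The tissue was dissociated with papain, live nucleated cells (positive for Hoechst and negative for DRAQ7) were sorted, and unique transcripts (UMIs) were counted at the 3' end with 10x Genomics chemistry. Mice 1 to 4 contributed 294, 216, 178 and 206 class I neurons and 266, 221, 203 and 319 class II neurons. Because 1 animal gave both sums of a pair, the mouse was a block in the fits unless stated otherwise.

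The class I sums held 824211 to 1720933 UMIs and the class II sums 929992 to 1488129. The median neuron held 3972 to 6881.5 UMIs in class I and 3555 to 5931 in class II, and was deeper in class I in 4 of 4 mice. Of 21755 different barcodes 54 occurred in over 1 library, 3 of them among the 2730 of dorsal neurons. Both sets carried the markers of mature neurons: Omp, the olfactory marker protein, reached 61.3 ± 2.78 UMIs per 10000 UMIs in the first set and 66.1 ± 4.08 in the second (SD, n = 4), a difference that was not called (log2 −0.07, SE 0.0261, edgeR adjusted p = 0.143). Omp was lower in class I in 4 of 4 mice, and within the plain Dorsal cluster it was called lower (log2 −0.13, edgeR adjusted p = 0.0394). The dorsal marker Nqo1 was at 27.4 ± 4.84 and 23 ± 3.64, and the ventral marker Nfix at 0.093 ± 0.0463 and 0.469 ± 0.143, against 5.28 in the 6806 neurons of the ventral clusters. Since Nqo1 and Nfix are among the genes from which the clusters were cut, their values between the classes are descriptions of how the neurons were chosen.

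With the mouse as a block, edgeR called 398 of the 8695 genes (4.58%) that entered its quasi-likelihood test, at an adjusted p of 0.05. Class I neurons were higher for 223 genes (2.56%) and lower for 175 (2.01%). Of the 398 genes 375 differed the same way in 4 of 4 mice, and 73 differed by more than 2-fold, 48 of them higher and 25 lower in class I. The median absolute log2 difference of the called genes was 0.49, so most differences were modest. DESeq2's Wald test called 104 genes, and edgeR called 151 without the mouse block and 184 after every neuron had been thinned to the same depth. Counted without a model, 500 genes (5.75%) had class I values in the 4 mice that did not overlap the 4 class II values. With 4 values a side, part of such separations arise by chance. That part was not computed, so a lack of overlap is a description. The plot of all genes shows the few large differences standing outside a narrow band.

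**Figure D1:**
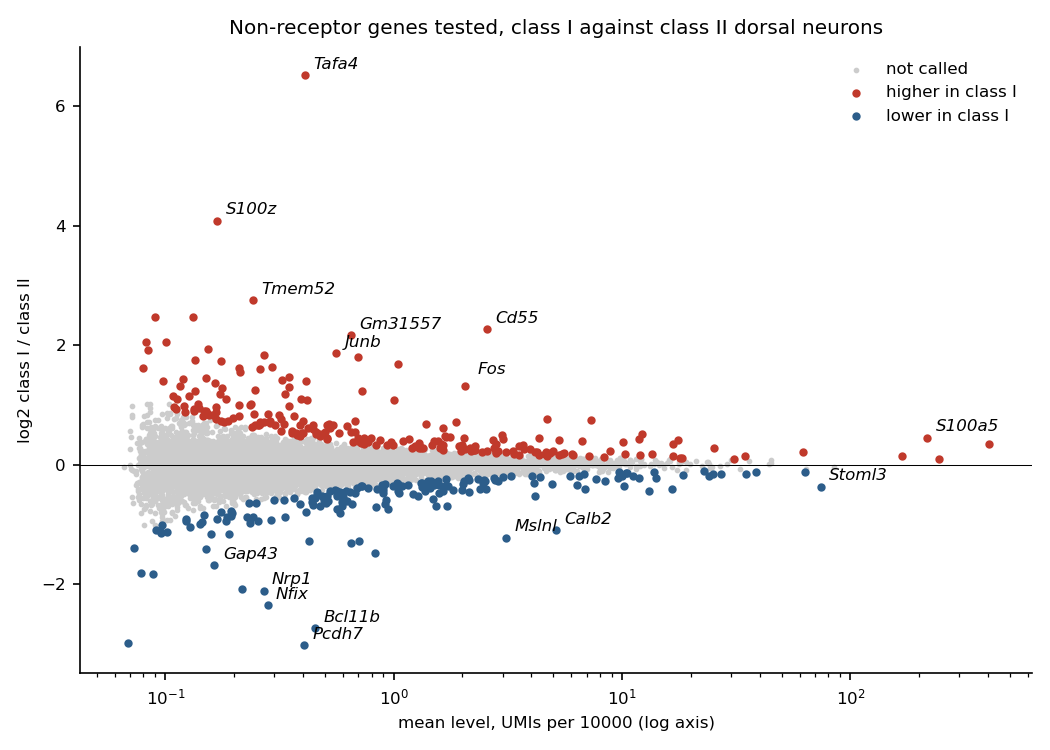
Each point is 1 of the 8695 non-receptor genes tested, with the mean level over both classes in UMIs per 10000 on a log axis and the fitted log2 ratio of class I over class II on the vertical axis, red where called higher and blue where called lower in class I by edgeR. Tafa4 (6.51) and S100z (4.08) stand highest, and Pcdh7 (−3.01) and Bcl11b (−2.72) are among the lowest.

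The sharpest marker of class I neurons was Tafa4 (ENSMUSG00000046500, chr6:96831203-97060413, GRCm38), which encodes a small secreted protein of the TAFA family. Class I neurons of mice 1 to 4 held 0.941, 0.71, 0.96 and 0.643 UMIs of it per 10000, and class II neurons of the same mice 0.0269, 0, 0 and 0. Every class I value was far above every class II value, and 399 counts stood against 4, all from mouse 1. The fitted log2 difference was 6.51, SE 0.30, edgeR adjusted p = 1.82e-28. That SE is derived from the test statistic and does not cover the values with 1 mouse left out, 6.03 to 9.39. Without mouse 1 the class II sums held no count and the fitted value, which is then no bound, was 9.39.

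Single cells showed the same separation. At least 1 Tafa4 UMI was found in 31.3% ± 10.2 of class I neurons and in 0.376% ± 0.752 of class II neurons (mean and SD over 4 mice). After each neuron had been thinned to 3000 UMIs, which left 784 and 839 neurons, the shares were 20.6% ± 3.4 and 0.1% ± 0.2. Ventral neurons and Mv2 microvillar cells were as low as class II. Of 6806 ventral neurons (median 4857.5 UMIs) 10 held a Tafa4 UMI, as did 1 of 1768 Mv2 cells (median 5081). The median class I and class II neuron held 5069 and 4516 UMIs. Dorsal neurons with a trace amine receptor, which belong to neither class, did hold Tafa4, with 14 counts or 0.62 UMIs per 10000. A share of neurons with a UMI is a matter of depth at these levels, since the gene gave less than 1 UMI per 10000.

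S100z (ENSMUSG00000021679, chr13:95477268-95478721), a calcium-binding protein of the S100 family, reached 0.325, 0.23, 0.414 and 0.303 UMIs per 10000 in class I neurons, against 0.00672, 0.0215, 0.0398 and 0.00865 in class II neurons. The classes did not overlap, with 153 and 9 counts in all (log2 4.08, SE 0.33, edgeR adjusted p = 2.92e-16). With 1 mouse left out the log2 difference ranged from 3.73 to 4.62. Cd55 (ENSMUSG00000026399, chr1:130439027-130462744), which encodes a membrane protein that dampens complement, was at 2.84, 4.67, 5.31 and 3.99 in class I. In class II it was at 0.632, 1.51, 0.748 and 0.796, so the lowest class I mouse lay above the highest class II mouse (log2 2.27, SE 0.0846, edgeR adjusted p = 1.57e-33). In ventral neurons Tafa4 was at 0.00287 UMIs per 10000 and Cd55 at 2.11. All 3 genes had been proposed as class I markers from earlier results of these data, so their calls are no independent evidence.

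Further genes were higher in class I by more than 3-fold. Tmem52, which encodes a transmembrane protein, was at 0.42 against 0.0646 UMIs per 10000 (log2 2.75, SE 0.23, edgeR adjusted p = 2.65e-15). The long noncoding RNA gene Gm31557 was at 1.06 against 0.242 (log2 2.17), and was also higher in the second class II group than in these class II neurons, by log2 0.98. The cadherin Cdh26 differed by 2.47 on the log2 scale, the adhesion receptor Adgrv1 by 2.05, the RNA-binding protein gene Ralyl by 1.93 and the collagen gene Col27a1 by 1.84. Without mouse 1 Cdh26 differed by 3.30 and Ralyl by 2.67. Tppp3, a tubulin-binding protein, was at 1.58 against 0.52 (log2 1.69, SE 0.11, edgeR adjusted p = 1.06e-20). Each of these genes was higher in class I in 4 of 4 mice with no overlap between the classes. The same direction in 4 of 4 mice was a condition for naming them, except for Adgrv1 and Tppp3.

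**Figure D2:**
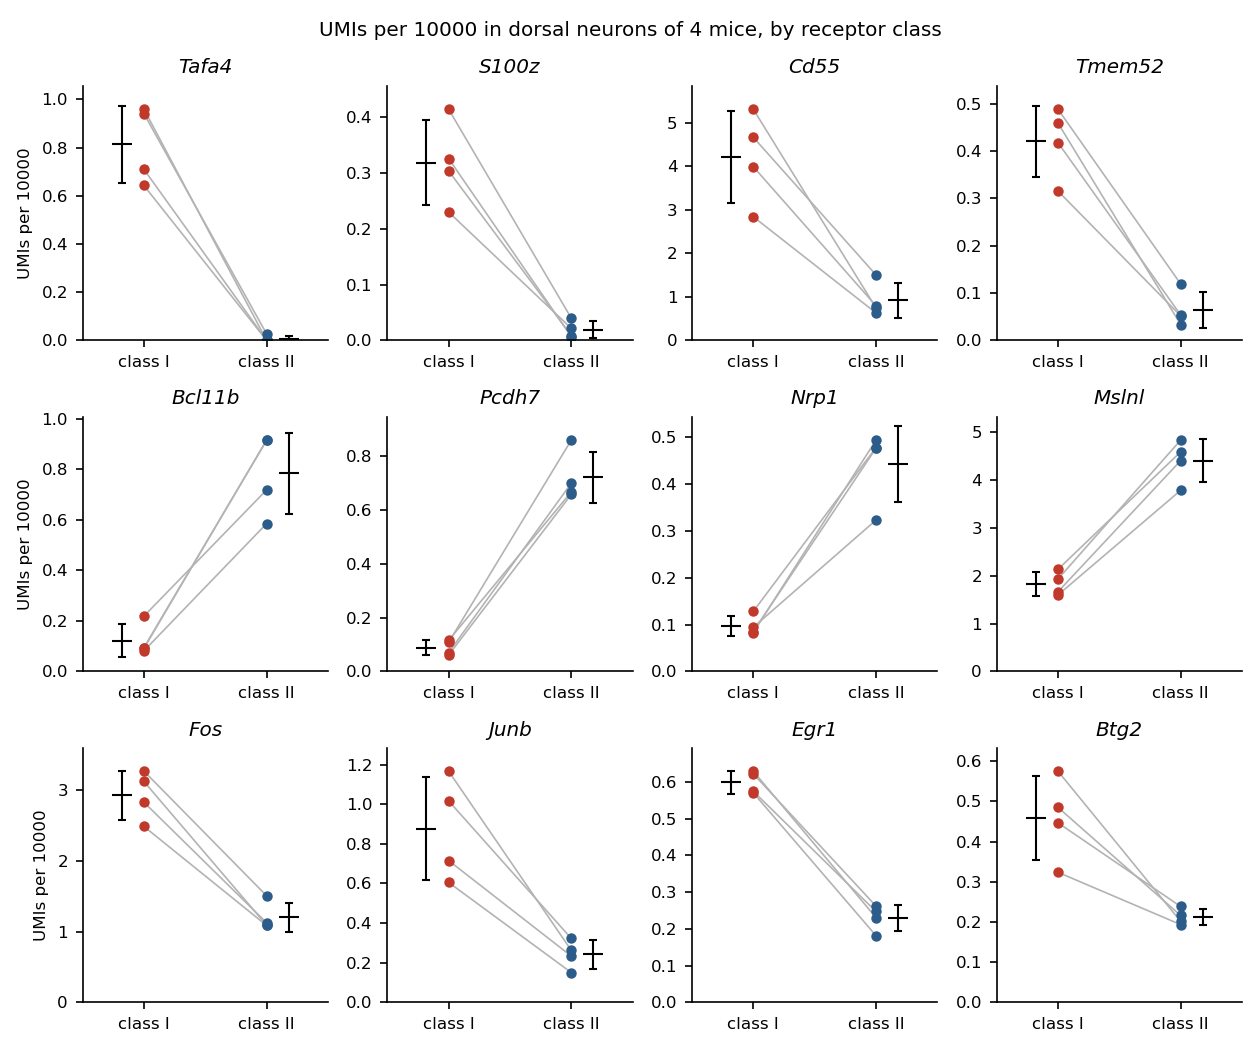
Levels of 12 genes in UMIs per 10000 in the summed class I (red) and class II (blue) dorsal neurons of each of 4 mice, joined by mouse, with the mean and SD in black beside the points. For every gene shown the 4 class I values lie wholly above or wholly below the 4 class II values.

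Among the genes lower in class I, Bcl11b (chr12:107910403-108003602), a zinc finger transcription factor, was at 0.0814, 0.094, 0.091 and 0.218 UMIs per 10000 in class I neurons of mice 1 to 4. Their class II neurons held 0.585, 0.914, 0.915 and 0.718. The highest class I mouse stayed well under the lowest class II mouse (log2 −2.72, SE 0.18, edgeR adjusted p = 4.21e-20). At least 1 UMI was present in 4.82% ± 1.47 of class I and 28.1% ± 7.3 of class II neurons, or in 2.83% ± 2.05 and 19.1% ± 3.93 at 3000 UMIs. In Mv2 cells the share was 1.27% and in supporting cells 1.99%. Its paralogue Bcl11a differed the other way, at 2.2 against 1.78 (log2 0.33, SE 0.0696, edgeR adjusted p = 5.16e-04), although this call was lost with DESeq2, with no mouse block and outside the plain Dorsal cluster.

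Pcdh7 (chr5:57717967-58133230), a protocadherin of the non-clustered kind that mediates cell contacts, was at 0.0697, 0.115, 0.108 and 0.0607 in class I and at 0.699, 0.667, 0.859 and 0.657 in class II. The classes were separated in every mouse (log2 −3.01, SE 0.19, edgeR adjusted p = 7.88e-22). In a list of non-clustered protocadherins and other adhesion genes 11 were tested. Pcdh7, Pcdh17 and Pcdh19 were lower and Pcdh1 and the adhesion receptor Adgrv1 higher in class I, and 6 were not called (45.5% called, beside 4.58% of all genes). This list and all later ones were chosen with earlier results of these data known, so their called shares are no independent evidence. Pcdh1 was at 0.314 against 0.11 (log2 1.55) and Pcdh17 at 1.29 against 1.89 (log2 −0.47). Pcdh19 was lost without mouse 1 or mouse 3.

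Nrp1, a receptor for semaphorins that guides axons, was at 0.0974 ± 0.0209 in class I and 0.442 ± 0.0801 in class II (log2 −2.10, SE 0.20, edgeR adjusted p = 4.93e-13). The other semaphorin receptor gene of the pair, Nrp2, was at 0.102 against 0.169 and was not called (adjusted p = 0.196). Of 30 axon guidance and adhesion genes tested, 3 were higher (Robo2, Kirrel and Kirrel2) and 3 lower (Nrp1, Plxna3 and Kirrel3), 20% of the list beside 4.58% of all genes, and the list's median log2 of −0.08 stood beside 0.00 for all genes. The adhesion genes Kirrel2 and Kirrel3, which help sort axons into glomeruli, differed in opposite directions, at log2 0.22 and −0.65. Robo2 was lost without mouse 1, 3 or 4 and Plxna3 without mouse 3 or 4.

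Other named genes were lower in class I as well. Mslnl, related to mesothelin, was at 2.13, 1.6, 1.66 and 1.93 in class I and at 4.59, 3.78, 4.41 and 4.84 in class II (log2 −1.22, SE 0.059, edgeR adjusted p = 3.74e-27). The carbonic anhydrase Car2 was at 0.397 against 1.01, the glycine-cleaving enzyme Gldc at 0.252 against 0.604, the tubulin Tuba4a at 0.365 against 0.934 and the metalloprotease-related Adam28 at 0.426 against 1.24. Their log2 differences were −1.28, −1.27, −1.31 and −1.47, and none of them had overlapping classes.

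Genes whose level follows recent or long-term activity were mostly higher in class I. Of 16 tested, 10 were higher in class I and 1 was lower, where 4.58% of all genes were called in either direction, and their median log2 was 0.43 against 0.00 for all genes. Within plain Dorsal 6 of 15 were higher and 2 lower. The list was chosen with earlier results of these data known, so these shares are no independent evidence. Fos, an immediate early transcription factor, was at 3.27, 2.49, 3.12 and 2.83 in class I and at 1.51, 1.09, 1.09 and 1.12 in class II (log2 1.31, SE 0.0716, edgeR adjusted p = 1.45e-24). Junb was at 1.02, 0.606, 1.17 and 0.716 and 0.323, 0.151, 0.262 and 0.234 (log2 1.87, SE 0.13, edgeR adjusted p = 1.22e-18). In both cases the classes did not overlap.

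Egr1 was at 0.599 against 0.23 (log2 1.40), Fosb at 0.564 against 0.269 (log2 1.08) and Btg2 at 0.458 against 0.212 (log2 1.18), each higher in 4 of 4 mice. Ier2 and Dusp1, which encodes a phosphatase of MAP kinases, differed less, by 0.47 and 0.26. Jun and Jund, other subunits of the same dimeric factors as Fos and Junb, were at 2.71 against 2.72 and 7.51 against 8.38 and were not called (adjusted p = 0.809 and 0.131). Fos differed in the share of neurons with a UMI and in the share with many. At least 1 UMI was seen in 52.5% ± 7.08 of class I and 35.7% ± 7.06 of class II neurons, or in 40.8% ± 3.58 and 27.1% ± 2.1 at 3000 UMIs. In the neurons of all mice together, 5 or more UMIs were seen in 9.96% and 0.991%. The latter shares were not thinned, and class I neurons were deeper.

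Fos was far higher in cells that are not neurons, with 21.9 UMIs per 10000 in Mv2 microvillar cells and 50.9 in the HBC1 basal cells. The 11 microvillar genes summed to 0.485 to 0.639 UMIs per 10000 in class I and 0.223 to 0.398 in class II, and the single one tested, Coch, which encodes an extracellular matrix protein, made up 0.529 ± 0.0774 and 0.257 ± 0.0636 of these. Coch was found in 1767 of 1768 Mv2 cells. Of the list, Atp6v1b1, Moxd2 and Chat were at 0 counts in both classes. The 8 basal cell genes summed to 0.0121 to 0.136 in class I and 0.00865 to 0.0806 in class II, with Trp63 at 0. The 14 supporting cell genes summed to 0.500 to 0.637 and 0.524 to 0.787, with Aldh1a7 at 0, and the 13 immune and blood genes to 0.169 to 1.78 and 0.181 to 2.02, with Cybb at 0 in both classes. The part of other cells' RNA in the Fos difference was not tested.

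The activity-linked genes that are not immediate early genes gave other values within plain Dorsal. S100a5, a calcium-binding protein and the most abundant of them, was at 238, 210.1, 285 and 258 in class I and at 180.0, 149, 209.8 and 205 in class II. The classes did not overlap, though the lowest class I and the highest class II value were nearly equal (log2 0.45, SE 0.0246, edgeR adjusted p = 1.07e-24). Within the plain Dorsal cluster alone the log2 difference was −0.04 (adjusted p = 0.748). Pcp4l1, related to a calmodulin regulator, was at 19.9 against 15.4 (log2 0.41) over all dorsal clusters and lower in class I within plain Dorsal (log2 −0.35, adjusted p = 1.51e-05). Kirrel2 was not called within plain Dorsal either (log2 −0.08). Ptn, a secreted growth factor, was the activity-linked gene called lower in class I over all dorsal clusters, at 3.35 against 4.94 (log2 −0.53), and was not called within plain Dorsal (log2 −0.20, adjusted p = 0.108).

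In the olfactory cascade a receptor activates the G protein made with Gnal, adenylyl cyclase 3 raises cyclic AMP, and a channel of Cnga2, Cnga4 and Cngb1 opens. Of 23 transduction genes tested, 5 were lower in class I and 2 higher, all by small amounts. This was 30.4% beside 4.58% of all genes, and the median log2 was −0.07 against 0.00 for all genes. Within plain Dorsal 2 of 23 were higher and 7 lower. Stoml3, a membrane protein of the cilia, was at 69.8, 64.3, 58.4 and 62.7 in class I and at 93.7, 79, 81.2 and 83 in class II, with no overlap (log2 −0.36, SE 0.0266, edgeR adjusted p = 2.27e-18). Cnga4 was at 4.3 against 5.55 (log2 −0.32, SE 0.0466, edgeR adjusted p = 2.36e-07), Cnga2 at 6 against 6.98 (log2 −0.18), and Gnal at 25.3 against 28.8 (log2 −0.15). The cyclic AMP phosphodiesterase Pde4a was at 4.05 against 4.71 (log2 −0.20), a call lost without mouse 1 or 3.

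Cngb1, Adcy3, the chloride channel gene Ano2 and Gng13 were not called, at log2 −0.15, −0.08, −0.07 and −0.04. Calm2, a calmodulin gene, was among the higher ones, at log2 0.22. Cnga4 (chr7:105404568-105408742) begins 35.2 kilobases past the end of the receptor stretch (chr7:102476579-105369355). Of 22 tested genes within that stretch or 500 kilobases either side of it, Cnga4 was called and the other 21 were not, a share like the 4.58% over all genes.

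A list drawn up for secreted signals held differences in both directions. Of 13 tested, 5 were higher and 2 lower in class I (53.8%, beside 4.58% of all genes), with a median log2 of 0.26. Beside Tafa4 the higher genes were Nppc, which encodes C-type natriuretic peptide, the granins Scg3 and Chgb, and Fgf12. Nppc was at 0.444 against 0.146 (log2 1.64, SE 0.19, edgeR adjusted p = 2.41e-10). Scg3, Chgb and Fgf12 differed by log2 0.61, 0.74 and 0.16. The protein of Fgf12 is not a secreted one, so the counts and the share describe the list and not secreted signals alone. Cartpt, the precursor of the CART peptide, was at 23.4 against 26.6 (log2 −0.15). Pcsk2, a convertase that cleaves prohormones, and the growth factor gene Bmp3 were also higher, at log2 1.75 and 1.74.

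Of 27 transcription factors tested, 4 were higher (Bcl11a, Emx2, Dlx6 and Tshz1) and 3 lower (Bcl11b, Fezf1 and Mef2a), 25.9% beside 4.58% of all genes, with a median log2 of 0.01. Within plain Dorsal 1 of 25 was higher and 1 lower. Lhx2, Ldb1 and Ebf1, which act at receptor gene enhancers and promoters, were not called. They were at 4.71 against 4.56, 0.314 against 0.385 and 12.1 against 11.5 UMIs per 10000, with adjusted p of 0.442, 0.463 and 0.0887 in edgeR, and without mouse 3 Ebf1 was called. Emx2, a homeobox factor of the olfactory epithelium, was at 0.88 against 0.672 (log2 0.38), and lost its call without mouse 2 or 4. Dlx6 lost it without mouse 3, Tshz1 without mouse 3, Mef2a without mouse 2, and Fezf1 without any of mice 1, 2 and 3. Bcl11b was thus the factor with the largest difference in the list and kept its call in all 14 alternatives.

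Of 9 zone genes tested, Nqo1 and Robo2 were higher and Nfix, Nrp1 and Cidea lower (55.6%, beside 4.58% of all genes), with a median log2 of 0.05. Nqo1 and Nfix helped to choose the dorsal neurons, so this share is partly a product of the selection. Within plain Dorsal Nfix and Nrp1 differed by −2.43 and −2.08. Of 14 S100 and calcium-binding genes, 5 were higher and 2 lower (50%, beside 4.58%), with the same median of 0.05, and within plain Dorsal 2 of 11 were called, both lower. S100a6 was at 1.07 against 0.326 (log2 1.79) but only 0.29 within plain Dorsal, where it was not called. Calb2, the calcium buffer calretinin, was at 3.76, 2.88, 3.4 and 2.75 in class I and at 8.2, 7.57, 5.91 and 6.57 in class II with no overlap (log2 −1.09, SE 0.0532, edgeR adjusted p = 4.42e-27), and within plain Dorsal its log2 difference was −0.27 (adjusted p = 0.393). Of 9 genes that mark subsets of neurons, 4 were higher (Cd36, Cd55, Dlg2 and Tppp3) and 4 lower (Calb2, Adam28, Cidea and Plcl1), 88.9% beside 4.58% of all genes. Cd36, Cd55, Dlg2 and Calb2 name the deposited clusters, whose shares differed between the classes, so this share is no independent result. Within plain Dorsal 2 of 6 were higher and 2 lower, and Dlg2 was called lower (log2 −0.78). Cidea was lost without mouse 2 or 3 and Plcl1 without mouse 1 or 4.

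In other lists fewer members were called, beside 4.58% of all genes. Of 26 channel genes 1 was higher (Scn3b, lost without mouse 2) and 3 lower, among them the sodium channel Scn9a at log2 −0.27. Of 25 presynaptic and neuromodulator genes 1 was higher (Syt4, lost without any 1 mouse) and 1 lower. Of 21 redox genes Nqo1 and Por were higher and Prdx1 lower, and of 19 receptor trafficking and stress genes the chaperones Dnajb9 and Hsp90b1 were lower, at log2 −0.42 and −0.19. The called shares were 15.4% of the channel, 8% of the presynaptic, 14.3% of the redox and 10.5% of the trafficking genes. The smallest edgeR adjusted p was 0.0648 among 9 sphingolipid genes (Sptlc2), 0.795 among 3 supporting cell genes (Cyp2a5) and 0.292 among 2 immune or blood genes (Hbb-bs), and no basal cell gene reached the level needed for a test.

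Markers of immature neurons were mixed. Of 14 tested, Stmn2 and Tubb3 were higher and Gap43, Stmn1, Stmn4 and Dcx lower in class I (42.9%, beside 4.58% of all genes). Stmn2 lost its call without mouse 3 and Dcx without mouse 3 or 4. Gap43, a growth cone protein, was at 0.139, 0.0313, 0.0662 and 0.0607 in class I and at 0.43, 0.237, 0.167 and 0.182 in class II, a difference at very low level (log2 −1.68, SE 0.25, edgeR adjusted p = 4.75e-07, 40 and 128 counts). The 18 genes of the list together summed to 26.9 to 29.3 UMIs per 10000 in class I and 27.5 to 29.2 in class II.

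The classes took different shares of the 5 dorsal clusters. Class I neurons made up less of the Calb2+ D. cluster, which held 12.9%, 10.2%, 10.1% and 8.74% of class I against 22.2%, 21.7%, 19.7% and 17.6% of class II neurons in mice 1 to 4. The Cd55+ D. cluster held 5.78%, 10.2%, 10.7% and 10.7% of class I and 0.376%, 4.07%, 0.985% and 1.88% of class II neurons. The shares in the Cd36+ D. cluster were 13.3% ± 2.63 and 8.01% ± 2.83, and in plain Dorsal 51.1% ± 2.39 and 56.5% ± 2.45 (SD, n = 4). Each of the 5 shares differed the same way in 4 of 4 mice, with the Dlg2+ D. cluster at 15.8% ± 2.56 and 13.4% ± 3.53. For Dlg2+ D. the difference was 2.42 percentage points and 1.45 without mouse 1. The exact sign-flip permutation test over 4 mice gave its smallest possible two-sided p, 0.13, for all 5, also after adjustment, so no share could pass at 0.05. The clusters were cut from these genes, so shares and gene levels are not independent.

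A comparison within the plain Dorsal cluster, 459 class I and 572 class II neurons, held the cluster constant. There 174 of 6920 genes tested were called (2.51%), and 92 without mouse 3 or 58 without the mouse block. Of 335 genes called over all dorsal clusters and tested here, 324 differed in the same direction and 143 were called. The other 4 clusters formed a separate set of neurons from the same mice, and there 226 genes were called. Of 323 genes called over all dorsal clusters and tested in both sets, 57 were called in both, 35 higher and 22 lower over all. The sign was the same in both sets for 55 of the 57. Both sets are parts of the neurons on which the genes were first called. Genes that go opposite ways in them were less likely to enter, so agreement in sign was favoured beforehand, here and for plain Dorsal.

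These 55 genes included Tafa4 and Cd55 of the 3 class markers, while S100z was too low to be tested within plain Dorsal. Tafa4 differed by 6.33 within plain Dorsal and 6.33 in the other clusters, Cd55 by 2.67 and 2.05, Tppp3 by 2.47 and 1.39, and Gm31557 by 1.61 and 2.78 on the log2 scale. Bcl11b differed by −2.76 and −2.69, Pcdh7 by −3.42 and −2.64, Mslnl by −1.16 and −1.25, and Car2 by −1.21 and −1.34. Of the immediate early genes Fos, Fosb, Junb, Egr1 and Btg2 were among them, with Fos at 1.25 and 1.28, Junb at 1.33 and 2.11, and Egr1 at 1.25 and 1.41. The other 2 went opposite ways. Dlg2, a scaffold protein of synapses, was at −0.78 within plain Dorsal and 0.54 in the other clusters, and Pcp4l1 at −0.35 and 0.70.

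Within each of the 5 clusters Tafa4 was found in class I neurons, at 0.767 UMIs per 10000 in plain Dorsal, 0.794 in Calb2+ D., 1.1 in Cd36+ D., 1.09 in Cd55+ D. and 0.787 in Dlg2+ D. neurons of all mice together. The class II neurons of the same clusters held 0 to 0.0267. Bcl11b was at 0.0242 to 0.174 in class I and 0.64 to 1.15 in class II, so the order of the classes was the same in all 5. The Cd55+ D. cluster held only 18 class II neurons, 1 to 9 per mouse.

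Nppc was concentrated in Cd36+ D. neurons of class I, at 2.11, 1.91, 2.18 and 1.89 UMIs per 10000 in mice 1 to 4 against 0, 0.165, 0 and 0.534 in class II. In plain Dorsal it was lower in class I in every mouse, at 0.0629 ± 0.0152 against 0.155 ± 0.0676. Fos was also highest in Cd36+ D. neurons of class I, at 6.76 ± 1.1, against 2.5 ± 1.71 in class II. S100z had most of its counts outside plain Dorsal, at 0.961 in Cd36+ D. and 0.512 in Dlg2+ D. class I neurons but 0.162 in plain Dorsal. Whether the class difference itself differed between clusters was not tested, since the clusters were cut from these genes.

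**Figure D3:**
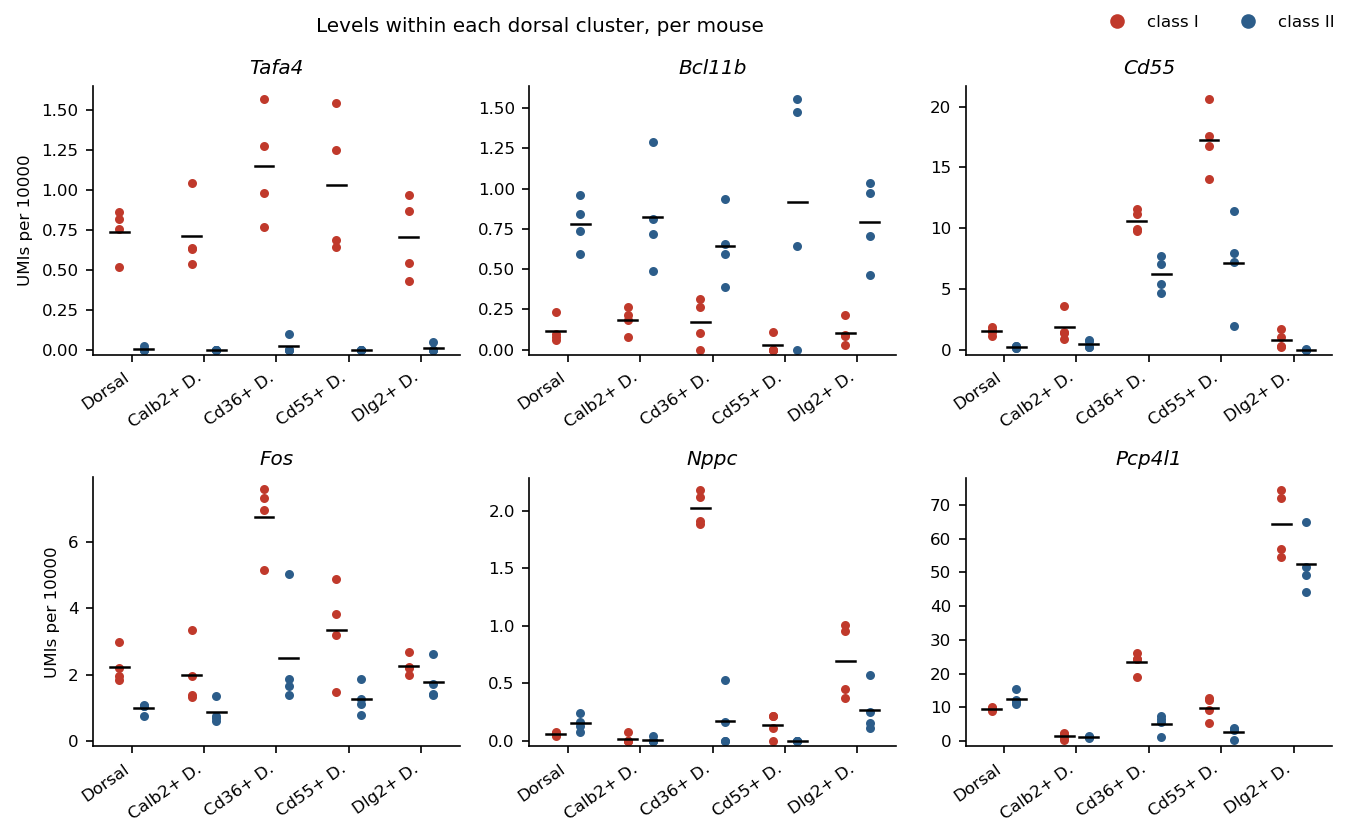
Levels of 6 genes in UMIs per 10000 in class I (red) and class II (blue) neurons of each deposited dorsal cluster, with 1 point per mouse and a black line at the mean of 4 mice. Tafa4 and Bcl11b keep the order of the classes in all 5 clusters, Nppc in class I peaks in Cd36+ D., and Pcp4l1 is lower in class I in plain Dorsal and higher in Cd36+ D. and Dlg2+ D.

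To show what 2 groups of the same class give, the 628 other class II neurons were set against the class II neurons above. Here 14 of 8283 genes were called (0.169%; 5 without mouse 4 and 4 without the mouse block), and 461 had an unadjusted p under 0.05, against 1316 between the classes. These 2 comparisons share the class II sums. The sums of the second class II group were smaller, at 547219 to 1031443 UMIs per mouse against 824211 to 1720933 for class I. A difference of the same size was thus less likely to be called. Of the 14 genes 8 were also called between the classes. Tafa4 had 0 counts in the other class II neurons, where the floor of 3 counts is 0.0098 UMIs per 10000, and Bcl11b was at 0.938, Pcdh7 at 0.719 and Fos at 1.26. Among the 8, the fatty acid transporter gene Cd36, Tshz1 and Tppp3 were lower in the other class II neurons, by log2 −4.93, −1.89 and −1.12 (other class II minus class II), where class I was higher. Gm31557, S100a5, S100a2, Stmn4 and Pth2 differed in the same direction as class I did, by 0.98, 0.26, 1.42, −0.27 and −0.24.

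Single receptor populations were examined where they held at least 10 dorsal neurons, which left 33 class I and 30 class II populations with 69.0% and 52.6% of the neurons. Every one of the 33 class I populations held Tafa4 counts, from 0.192 to 2.11 UMIs per 10000, highest in Olfr596, Olfr646 and Olfr582 neurons. Of the class II populations only that of Olfr1511 held any, at 0.147, below the lowest class I population. Both of these values rest on very few counts, so their order is a description. For Tmem52, 25 of 33 class I populations exceeded the highest class II population.

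Other markers were detected in part of the class I populations. The smaller populations held few UMIs, so a population without a count is not shown to lack a gene of low level. S100z counts were found in 21 of 33 class I and 2 of 30 class II populations, with the highest levels for Olfr553 (1.96), Olfr599 (1.77) and Olfr666 (1.37). Cd55 was found in 22 and 12 populations, and reached 20.8 in Olfr592 neurons and 5.61 in Olfr916 neurons. Bcl11b was detected in 16 of 33 class I and 29 of 30 class II populations, and 1 class I population lay above the class II median. That population was Olfr639, at 0.813 against a class II median of 0.675, a value that rests on few counts.

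Pcdh7 varied widely among class II populations, from 0 to 1.79, and 13 of 30 exceeded the highest class I population (0.368). Nrp1, at a lower level than Pcdh7 in class II, had counts in 15 of 30 class II populations, with the highest levels in the Olfr744 (2.45) and Olfr745 (2.15) populations. Whether the other populations lack Nrp1 cannot be told at this depth. Fos exceeded the class II median of 1.14 in 31 of 33 class I populations. It ranged from 0.165 to 10.5 in class I and from 0 to 2.73 in class II, with Olfr553, Olfr665 and Olfr666 neurons highest. Populations differ in size and share mice, so these values are descriptions.

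**Figure D4:**
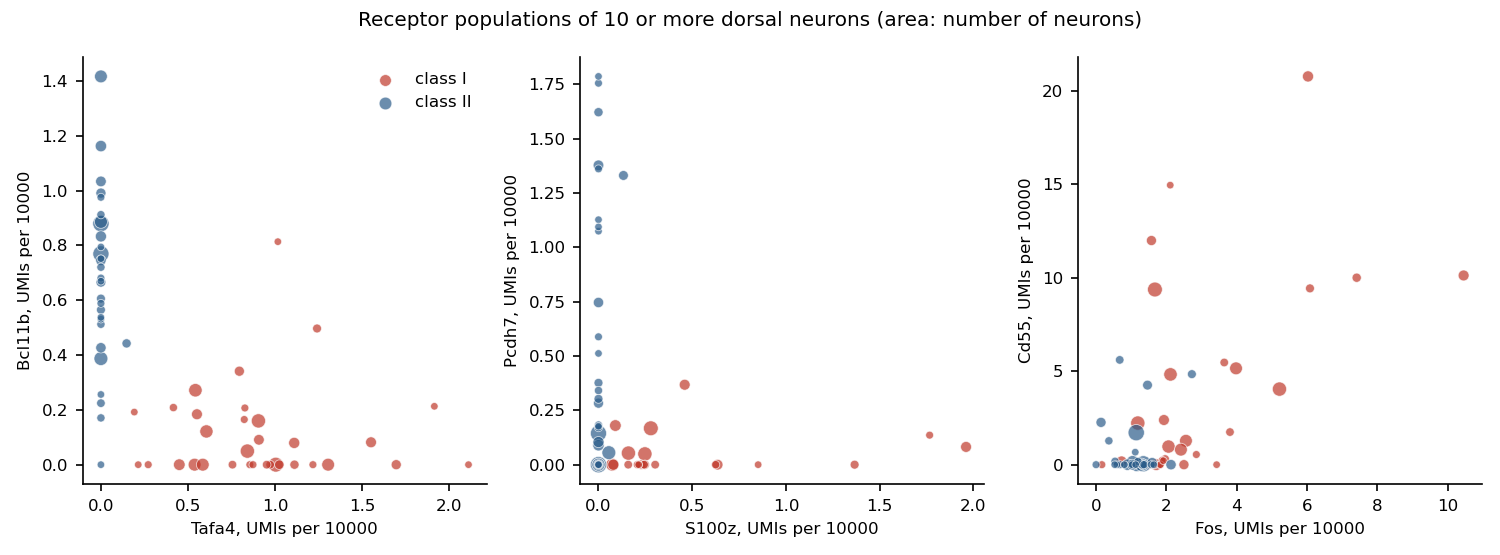
Each point is a receptor population with 10 or more dorsal neurons, 33 of class I in red and 30 of class II in blue, and its area follows the number of neurons. The axes give levels in UMIs per 10000 of Tafa4 against Bcl11b, S100z against Pcdh7 and Fos against Cd55. All class I populations lie to the right of all class II populations for Tafa4, whereas both classes meet at low Fos and Cd55. The lowest class I and the highest class II value of Tafa4, 0.192 and 0.147, rest on few counts.

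Receptor transcripts of the neuron's own receptor were slightly more abundant in class I. The per-mouse median was 85.4, 91.9, 87.3 and 81.0 receptor UMIs per 10000 in class I and 82.2, 82.6, 81.1 and 75.8 in class II neurons of mice 1 to 4. Class I was higher in each mouse, although its lowest mouse lay below the highest class II mouse. The difference of 5.94 ± 2.54 (SD, n = 4) had the smallest p that the exact sign-flip permutation test allows, 0.13 (two-sided). Within plain Dorsal alone it was 2.55.

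Neurons outside the rule gave further values. In 76 dorsal neurons whose receptor gene lies in the same stretch of chromosome 7 under another number or name, Tafa4 was at 0.688, 1.05, 0.425 and 0.854 UMIs per 10000 in mice 1 to 4. Pcdh7 and Nfix had 0 counts there, with a floor of 0.0751, and Bcl11b was at 0.127 ± 0.112 and Fos at 2.53 ± 0.891 (SD, n = 4). These neurons thus had levels near those of the class I neurons, whose Tafa4 mean was 0.814.

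A further 79 neurons with a class I identity had been placed in ventral clusters. They held 6 Tafa4 counts, or 0.183 UMIs per 10000, and their Bcl11b (0.792) and Pcdh7 (0.853) were near the dorsal class II levels. Their Nqo1 was at 5.03 and their Nfix at 1.98, between the dorsal class I and the ventral levels. The clusters were cut partly on these genes, so this ordering is a description.

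Immature neurons, which no dorsal cluster had selected, were assigned to a class by their highest receptor where it had at least 2 UMIs. In the earlier stage, iOSN1, 45 class I and 324 class II cells were found, and in the later stage, iOSN2, 82 and 530, with the class II cells drawn from all zones. Tafa4 was at 0.393, 0.382, 0.574 and 0.547 in class I iOSN1 cells of mice 1 to 4 and at 0.0274, 0, 0.0165 and 0 in class II cells. At the iOSN2 stage it was at 0.881, 0.398, 0.759 and 0.445 and 0.00854, 0.00989, 0 and 0. The classes did not overlap at either stage. The class I iOSN1 sums held 8 to 15 cells and 52343 to 139433 UMIs per mouse, so these values rest on few counts.

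In class II cells Bcl11b was at 3.3 ± 0.621 at iOSN1 and 1.31 ± 0.292 at iOSN2 (SD, n = 4). In class I it was at 0.471, 0.191, 0.215 and 2.01 and then 0.24, 1.19, 0.19 and 0.222. Class I stayed below class II in each iOSN1 mouse, and at iOSN2 mouse 2 of class I overlapped class II. Pcdh7 was at 0.233 ± 0.249 in class I and 0.84 ± 0.311 in class II iOSN1 cells, and at 0.63 ± 0.418 and 0.746 ± 0.137 at iOSN2, where the classes overlapped.

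Of the immediate early genes, Fos was at 1.67 ± 0.575 in class I and 1.93 ± 0.257 in class II iOSN1 cells, which overlapped, and at 4.02 ± 0.905 and 1.5 ± 0.532 in iOSN2 cells, which did not. Junb was at 0.505 ± 0.406 and 1.16 ± 0.574 at iOSN1, and at 0.753 ± 0.366 and 0.394 ± 0.104 at iOSN2, and its classes overlapped at both stages. No test was run on the immature cells, whose class I sums came from few cells per mouse.

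**Figure D5:**
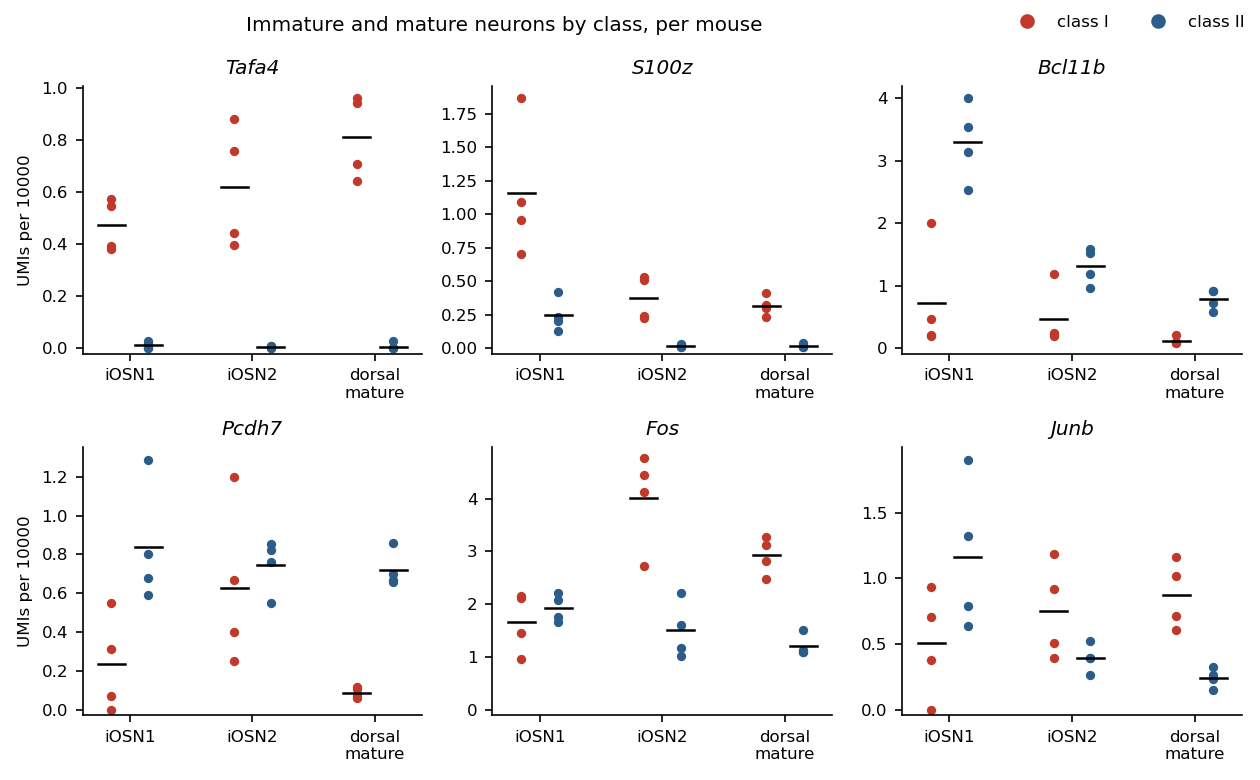
Levels of 6 genes in UMIs per 10000 in immature neurons of the iOSN1 and iOSN2 stages, assigned to a class by their highest receptor, and in the mature dorsal neurons, with 1 point per mouse, class I in red, class II in blue and a black line at the mean of 4 mice. Tafa4 is separated at all 3 stages, on few counts in the immature class I cells, whereas Fos overlaps between the classes at iOSN1 and is apart at the other 2.

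The 300 bases around the start of transcription, from 250 before to 50 after it in RefSeq's GRCm38.p6 models, were searched for 2 motifs on both strands. The letters CCCNNGGG, the core bound by Ebf factors of olfactory neurons, were present at 13.4% of 27025 promoters and at 17.7% of the 6857 tested genes that had one. They were present at 20.7% of 169 genes higher and 22.5% of 129 genes lower in class I. The windows of the class marker Cd55 and of the genes Adgrv1 (higher), Bcl11b and Mslnl (lower) are shown as examples of each direction, with the match in capitals.
Cd55, chr1:130462832-130462859, minus strand: acaactaggtCCCCTGGGtgaagctaga
Adgrv1, chr13:81633209-81633236, minus strand: gtgagcccatCCCCCGGGccagagtcct
Bcl11b, chr12:108003601-108003628, minus strand: ctcccccctcCCCTTGGGtggaagtgcg
Mslnl, chr17:25735961-25735988, plus strand: tatgcctgggCCCAAGGGgttgatacaa

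The cyclic AMP response element TGACGTCA, which is known from immediate early genes, was present at 1.88% of all promoters, 3.76% of the tested genes, 4.73% of those higher and 5.43% of those lower in class I. Of the 8 activity-linked genes that were higher in class I and had a promoter in the table, Btg2 and Dusp1 carried it. Tafa4 and S100z carried neither motif in this window. A match is a description of the letters and not of a bound site.
Btg2, chr1:134079304-134079331, minus strand: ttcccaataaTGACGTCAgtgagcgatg
Dusp1, chr17:26508598-26508625, minus strand: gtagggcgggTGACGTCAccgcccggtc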

How the data were processed

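The authors mapped reads with Cell Ranger 6.0.1 to GRCm38, using an Ensembl annotation in which they had re-annotated the 3' ends of receptor genes. Raw UMI counts per gene and barcode were deposited for each library, with a table of cell types, clusters and receptor identities. The authors had dropped blood, immune and damaged cells, leaving 15859 cells, had then dropped mature neurons with more than 1 strong receptor, and had cut the clusters from the same non-receptor genes. No further doublet caller was run.

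UMI counts of non-receptor genes were summed per mouse and class (4 mice) after 2049 receptor genes had been set aside. Genes passing filterByExpr were tested with the quasi-likelihood test of edgeR 4.0.16 under R 4.3.3, using TMM scaling, the mouse as a block and Benjamini-Hochberg adjustment at 0.05. Both sums of a pair come from 1 animal and library. The correlations of their deviations were 0.349, 0.162, 0.135 and 0.088 in mice 1 to 4, and each sum correlated best with its own partner. Levels are UMIs per 10000 of the summed neurons, and log2 differences are the fitted ones. An SE is the absolute log2 difference divided by the square root of the test's F statistic. With few counts in 1 class it is no full measure of error. With the mouse as a block, the p-values do not rest on the spread between mice itself. They rest on counting error and on how far the class difference varies over the 4 mice. For each gene that variation was drawn towards a trend shared by all genes. A very small p-value therefore does not measure agreement between the 4 mice alone. The test was also run on simulated counts drawn with a fixed dispersion and no mouse effect, so that check does not cover the mouse block. Alternatives were DESeq2 1.42.0 (size factors or Wald test), no filter, no block, thinned cells, other clusters, other receptor rules, capped populations and leaving out each mouse.

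Named genes were the 3 markers, the 12 largest called differences in each direction at 0.2 or more UMIs per 10000 and with the same direction in 4 of 4 mice, the 5 smallest p-values per direction, up to 4 called members per direction of each gene list, and members that were not called where a list needed them. Members and lists were chosen with earlier results of these data known. Some genes that the rule or the lists hold are not reported here. Gene positions are from GENCODE M21 and promoters from RefSeq.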

Additional observations from a re-analysis of the deposited data

Results flagged for a closer look

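In a few genes the difference between the classes in 1 mouse stood apart from the other 3. The gap of that mouse to its nearest neighbour was set against the whole range of the 4 differences (class I minus class II, UMIs per 10000), and a share above Dixon's critical value for 4 samples was taken as apart, which chance reaches in about 1 in 20 groups. This held for 4 of 89 quantities. For Chgb the share was 0.842, with mouse 1 at 0.434 and the others at 0.263 to 0.29. For Pcp4l1 it was 0.914, with mouse 3 at 3.43 and the others at 4.78 to 4.91. For Scn3b it was 0.849, with mouse 2 at 1.04 and the others at 0.255 to 0.373. For Adam28 it was 0.91, with mouse 3 at −1.13 and the others at −0.729 to −0.69.

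Some genes differed between the classes in opposite directions in all 4 mice of plain Dorsal and all 4 mice of another dorsal cluster. Nppc, the natriuretic peptide gene, differed by a mean of −0.0919 UMIs per 10000 in plain Dorsal, 0.423 in Dlg2+ D. and 1.85 in Cd36+ D. neurons. Pcp4l1 differed by −2.93 in plain Dorsal, 11.9 in Dlg2+ D. and 18.2 in Cd36+ D. neurons. Chgb differed by 0.24 in plain Dorsal and −0.262 in Cd36+ D. neurons. The scaffold gene Dlg2 differed by −0.554 in plain Dorsal and 2.52 in Cd36+ D. neurons. The difference between clusters was not tested, and the clusters were cut from these genes.

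Dorsal neurons with a trace amine receptor, which belong to neither class, also held Tafa4. There were 14 counts in 33 neurons, or 0.62 UMIs per 10000, where the floor of 3 counts is 0.133.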

How the results depend on the processing

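The comparison of the classes called 398 genes, against 104 with DESeq2's Wald test, 184 with thinned cells, 226 in the dorsal clusters other than plain Dorsal and 151 with no replicate block, that is without pairing the sums of a mouse. The other alternatives gave 272 to 545 genes, and leaving out 1 mouse 287 to 331. Plain Dorsal gave 174 genes, 58 with no replicate block and 92 to 168 with 1 mouse left out. The 2 class II groups gave 14 genes, 4 with no replicate block and 5 to 14 with 1 mouse left out. With capped populations the difference in cluster shares (class I minus class II, percentage points) was −11.6 for plain Dorsal, −6.33 for Calb2+ D., 7.60 for Cd36+ D. and 4.76 for Dlg2+ D., and with exactly 1 receptor detected −8.43 for Calb2+ D. The difference in receptor level was 2.55 within plain Dorsal alone. Causes were not tested, beyond that some alternatives hold fewer neurons or UMIs. Of 79 named genes that were called, 41 stayed called under every alternative that tested them. Over 1087 values of these genes 945 kept the call, 142 lost it and 0 turned direction, which leaves out plain Dorsal alone, where Dlg2 (−0.78) and Pcp4l1 (−0.35) were called the other way. Of all 398 genes 4 had the other sign in the dorsal clusters other than plain Dorsal. DESeq2's Wald test kept 50 of the 79 calls. Omp and Ldb1, not called over all dorsal clusters, turned to 0.00742 and 0.11 (log2) in the dorsal clusters other than plain Dorsal. Within plain Dorsal Omp was called lower in class I (log2 −0.13, edgeR adjusted p = 0.0394). Depth limited low genes, since a class sum of 1 mouse held 824211 to 1720933 UMIs.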

Other observations

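In trace amine receptor neurons of the dorsal clusters Tafa4 was at 0.433, 0.792, 0.988 and 0 UMIs per 10000 in mice 1 to 4, where the class I neurons ranged from 0.643 to 0.96. S100z had 0 counts there and Bcl11b 3. Along the lineage Tafa4 had 0 counts in the 284 immediate neuronal precursors (floor of 3 counts 0.0135), whereas Bcl11b was at 9.65 ± 1.2 and S100z at 0.901 ± 0.21 in them (SD, n = 4).

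Cd9, which encodes a tetraspanin, was also called in both plain Dorsal and the remaining dorsal clusters and was named after its values were seen. Class I neurons held 9.04 UMIs of Cd9 per 10000 against 5.62 in class II (log2 0.74). Among the class I neurons 476 held a Fos UMI and 198 a Junb UMI, and 158 held both.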
